A study of Mus musculus with 6 samples.

Results

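The genes described here encode the motile cilium axoneme and the factors that build it. They were taken by name from a table of 18238 mouse genes: every gene whose symbol begins with Dnah, Dnai, Dnal, Dnaaf, Cfap, Tekt, Rsph, Drc or Spef followed by a number, plus Dnali1 and Spag6. The rule found 75 genes, of which 15 were Dnah genes, 3 Dnal genes with Dnali1 counted among them, 6 Dnaaf, 33 Cfap, 5 Tekt, 6 Rsph, 3 Drc and 4 Spef genes with Spag6 counted among them. No Dnai symbol was found, because the axonemal dynein intermediate chains stood in the table under the older symbols Dnaic1 and Dnaic2. RNA-seq had been performed on 3 mice with lung cancer that were treated with artemisinin, an antimalarial sesquiterpene lactone from Artemisia annua, and on 3 mice with lung cancer that formed the model group. The labels number the libraries 1 to 3 within each group. The sources used here do not give the strain, age, dissected tissue, way the tumours were induced, or dose and duration of artemisinin. The labels do not say whether tumour, adjoining lung or airway entered a library.

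The axoneme is the microtubule shaft of a cilium or sperm flagellum. In motile cilia, outer and inner dynein arms attached to the outer doublet microtubules drive bending, radial spokes and a central pair of microtubules regulate it, and the nexin-dynein regulatory complex links neighbouring doublets. In the lung, motile cilia are carried by multiciliated cells of the airway epithelium, which stand beside secretory club cells; dynein arms are assembled in the cytoplasm of these cells before transport into the cilium, under a transcription program that includes FOXJ1 and RFX factors.

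Library totals were 25566173, 32108455 and 33126585 counts in the artemisinin group, and 34745497, 32964061 and 33074884 counts in the model group. The biological coefficient of variation was 0.389 in the artemisinin group and 0.211 in the model group. Artemisinin replicate 2 stood apart in its content of other tissue: summed markers of skeletal muscle reached 5095 CPM there, against 55.5 and 10.9 CPM in artemisinin replicates 1 and 3 and at most 4.60 CPM in the model libraries. Its summed markers of basal cells and squamous epithelium reached 854.3 CPM, against 4.88 and 1.20 CPM in the other artemisinin libraries and at most 0.618 CPM in the model libraries. CPM is the read count relative to library size after TMM scaling. Counts of calls and medians over the axoneme genes and their families are given with and without that library. Family medians are not given without any other library.

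Most axoneme genes were higher on average in artemisinin libraries, the libraries within each group differed widely, and 1 gene passed the test. The 75 genes together took 0.216%, 0.104% and 0.169% of all counts in artemisinin replicates 1, 2 and 3, and 0.0687%, 0.113% and 0.0896% in model replicates 1, 2 and 3. The shares overlapped, because artemisinin replicate 2 lay below model replicate 2. Expression was high enough to test 73 of the 75 genes. Dnah14, an inner arm dynein heavy chain, had 8, 5 and 0 counts in artemisinin libraries and 1, 1 and 1 in model libraries. Tekt3, a tektin, had 1, 4 and 23 counts in artemisinin libraries and 4, 3 and 2 in model libraries; both were under the minimum for testing. Per transcript length, the median of the group means over the 75 genes was 4.35 FPKM in artemisinin libraries and 1.96 FPKM in model libraries.

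By edgeR's quasi-likelihood F test, with p-values adjusted over 15242 genes after Benjamini and Hochberg, Tekt2 rose and no axoneme gene fell at an adjusted p under 0.05. Over all tested genes, 2.17% were called higher and 2.3% lower. At an unadjusted p under 0.05, 33 axoneme genes were higher and 3 lower, beside 13.7% higher and 11% lower of all tested genes. The log2 fold change of artemisinin over model was above 0 for 69 of the 73, beside 53.2% of all tested genes, and its median was 0.90, against 0.04 over all tested genes. All 3 artemisinin values lay above all 3 model values in 20 of the 73 and below them in 3, beside 16.3% and 17.3% of all tested genes, and the groups overlapped in the other 50. With 3 libraries against 3, an exact two-sided permutation test of a single gene cannot go below p = 0.1.

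The count of calls depended on the library set and on the tool. Without artemisinin replicate 2, edgeR called 16 axoneme genes higher and 0 lower, beside 4.34% of all tested genes called higher in the same fit. In that fit 67 of the 73 log2 fold changes were above 0, with a median of 1.07. The median fell to 0.67 without artemisinin replicate 1 and to 0.81 without artemisinin replicate 3. It was 0.67 without model replicate 1, 1.16 without model replicate 2 and 0.865 without model replicate 3. Leaving out any other single library gave 0 calls in either direction, but few genes of the whole table were called in those fits. The share of all tested genes called higher was 1.1% without artemisinin replicate 1, 1.78% without artemisinin replicate 3, 0.0386% without model replicate 1, 0.251% without model replicate 2 and 0.0515% without model replicate 3, so a count of 0 among 73 genes says little about the axoneme genes.

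The count at an unadjusted p under 0.05 moved as well. It was 10 of 73 higher without artemisinin replicate 1, beside 11.6% of all tested genes, and 10 of 73 without model replicate 1, beside 8.1%. It was 16 without model replicate 3, beside 8.18%, and 21 without artemisinin replicate 3, beside 12.1%. It was 45 without artemisinin replicate 2, beside 16.2%, and 41 without model replicate 2, beside 10.3%. The count was lowest without artemisinin replicate 1 or model replicate 1, the libraries with the highest and the lowest share of counts in these genes. With all 6 libraries, DESeq2 called 18 higher and 2 lower, beside 8.14% higher and 6.94% lower of all genes it tested. In bulk RNA, fewer or more ciliated cells and less or more RNA per cell cannot be told apart.

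**Figure D1:**
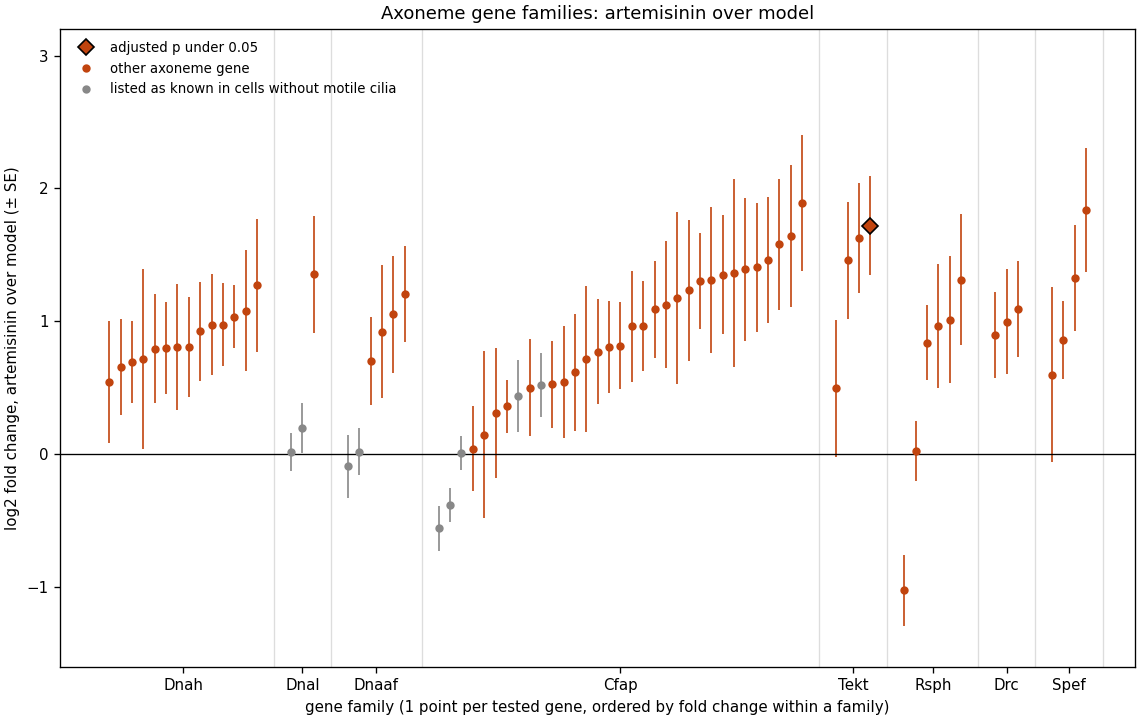
Log2 fold change of artemisinin over model for the 73 tested axoneme genes (vertical axis, with standard error bars), ordered within each family along the horizontal axis. Tekt2 (diamond) was the gene past the threshold. Above 0 lie 69 points, and grey points are the 9 genes listed as also known from cells without motile cilia.

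Tektins are filamentous proteins inside the doublet microtubules. Tekt2 (chromosome 4, 126322121 to 126325688, GRCm38) had 32.9, 11.9 and 19.7 CPM in artemisinin libraries, against 5.56, 7.72 and 6.27 CPM in model libraries. Every artemisinin library lay above every model library, with replicate 1 highest and replicate 2 closest to the model range. Tekt2 averaged 21.5 ± 10.6 CPM in artemisinin libraries and 6.52 ± 1.10 CPM in model libraries (SD, n = 3 each), a 3.29-fold difference (log2 1.72, SE 0.37; edgeR adjusted p = 0.0496). The call was close to the threshold. It was kept without artemisinin replicate 2 (adjusted p = 0.015) and lost without artemisinin replicate 1 (0.0789), artemisinin replicate 3 (0.0839), model replicate 1 (0.21), model replicate 2 (0.122) or model replicate 3 (0.179), with log2 fold changes between 1.28 and 2.01.

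Tekt4 and Tekt1, likewise proteins of the doublet lumen, had the same order of libraries in the artemisinin group. Tekt4 had 23.7, 8.66 and 13.6 CPM in artemisinin libraries, against 3.43, 5.19 and 6.24 CPM in model libraries. Tekt1 had 37.4, 13.5 and 22.1 CPM in artemisinin libraries, against 5.31, 12.5 and 8.64 CPM in model libraries. The groups did not overlap for either gene, but neither passed (log2 1.62, adjusted p = 0.0732, and log2 1.46, adjusted p = 0.107). Tekt5, a tektin of the mouse sperm flagellum, was picked out after its values were seen: it had 3.70, 6.46 and 2.09 CPM in artemisinin libraries and 1.70, 3.61 and 3.37 CPM in model libraries. Of the 73 tested axoneme genes it was the only 1 with its highest value in artemisinin replicate 2. The 4 tested tektins had a median log2 fold change of 1.54, and of 1.83 without artemisinin replicate 2.

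**Figure D2:**
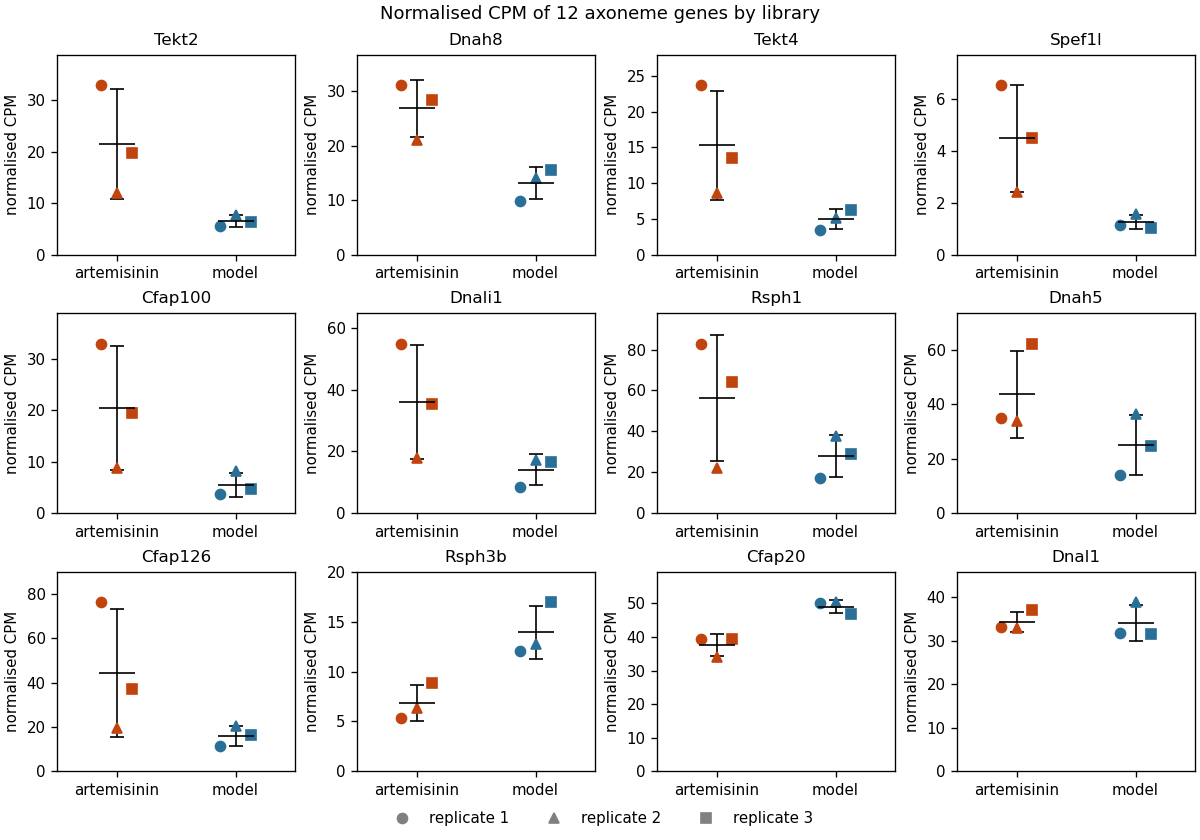
Normalised CPM of 12 axoneme genes (vertical axes, from 0), artemisinin to the left of model; symbols mark the replicate number, long bars the mean and short bars 1 SD (n = 3 each). For Tekt2, Dnah8, Tekt4, Spef1l, Cfap100 and Dnali1 the 3 artemisinin values lie above the 3 model values, for Rsph3b and Cfap20 below them, and for the other 4 genes the groups overlap.

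The Tekt2 promoter holds an X-box, the inverted-repeat motif bound by RFX factors, which are regulators of ciliary genes. In RefSeq promoter windows of GRCm38.p6, 250 bases before to 50 after each start, the motif was searched on both strands as the element GTNNCC followed by the element NGNAAC with 0, 1, 2 or 3 bases between them. Of the 75 genes, 64 matched a window. The motif was present for 20 of the 64 (31.2%), against 1606 of all 27025 genes with a window (5.94%). Stretches are shown for the 4 genes where the motif with its flanks lay upstream of the start and outside any RefSeq gene. They are Tekt2, which passed the test, Cfap45 and Cfap58 from the ciliary protein family, and Cfap298. Cfap298, one of the genes listed as also known outside motile cilia, carries the motif at 2 places upstream of its start. Each reads 5′ to 3′ on the gene's strand, lies upstream of the start outside any RefSeq gene, and has the motif in capitals. For Tekt2, Cfap45 and Cfap58 the match lies on the opposite strand. There the reverse complement of the capitals holds GTNNCC followed by NGNAAC.
Tekt2, chr4:126325689-126325735, minus strand: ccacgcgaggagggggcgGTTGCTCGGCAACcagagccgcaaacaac
Cfap45, chr1:172521093-172521129, plus strand: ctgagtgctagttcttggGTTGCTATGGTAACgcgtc
Cfap58, chr19:47937635-47937683, plus strand: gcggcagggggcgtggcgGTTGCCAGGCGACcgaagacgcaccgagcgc
Cfap298, chr16:90934886-90934936, minus strand: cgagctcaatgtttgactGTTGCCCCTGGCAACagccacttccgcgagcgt
Cfap298, chr16:90935006-90935055, minus strand: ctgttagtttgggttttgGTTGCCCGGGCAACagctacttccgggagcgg
Tekt2, Cfap45 and Cfap58 had log2 fold changes of 1.72, 0.96 and 0.77, and Cfap298 of 0.52.
The median log2 fold change was 0.87 for the 20 tested genes with the motif and 0.88 for the 42 without it. The forkhead motif GTAAACA, searched on both strands, was present for 4 of the 64 (6.25%), against 4.05% of all genes with a window. A match describes letters in these windows and not occupancy by a factor.

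Dynein heavy chains are the motors of the arms. Dnah5, Dnah9 and Dnah11 form outer arms of respiratory cilia, Dnah8 and Dnah17 belong to outer arms of mouse sperm, and the others tested here are inner arm motors. All 14 tested heavy chains had log2 fold changes above 0, from 0.54 to 1.27 with a median of 0.81 (1.03 without artemisinin replicate 2). None passed. At an unadjusted p under 0.05, 6 were higher, beside 13.7% of all tested genes. All artemisinin values lay above all model values for 4, beside 16.3% of all tested genes. Dnah5 (chromosome 15, 28154854 to 28472045) had 35.1, 33.9 and 62.4 CPM in artemisinin libraries, against 14.2, 36.3 and 24.6 CPM in model libraries (log2 0.81, SE 0.38; adjusted p = 0.235). Dnah9 had 32.1, 23.9 and 42.6 CPM in artemisinin libraries, against 8.78, 24.5 and 17.0 CPM in model libraries (log2 0.97, SE 0.38; adjusted p = 0.175). For both outer arm motors artemisinin replicate 3 was highest, model replicate 1 was lowest, and the groups overlapped through model replicate 2.

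Among inner arm motors, Dnah3 had 101.7, 31.2 and 56.5 CPM in artemisinin libraries, against 13.5, 39.1 and 25.8 CPM in model libraries (log2 1.27, SE 0.50; adjusted p = 0.177). Dnah12 had 65.7, 36.2 and 51.3 CPM in artemisinin libraries, against 16.8, 35.3 and 25.8 CPM in model libraries (log2 0.97, SE 0.31; adjusted p = 0.122). Dnah6 had 59.8, 52.4 and 73.2 CPM in artemisinin libraries, against 21.7, 51.6 and 41.4 CPM in model libraries (log2 0.69, SE 0.31; adjusted p = 0.216). Dnah3 overlapped, while Dnah12 and Dnah6 were separate by the narrow margin between artemisinin replicate 2 and model replicate 2. Dnah7a, Dnah7b and Dnah7c are near-identical copies between which reads may have been split; their summed level was 24.4, 16.9 and 24.4 CPM in artemisinin libraries and 6.10, 16.6 and 15 CPM in model libraries.

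Dnah8, described because it was listed among genes known mainly from the sperm flagellum, had the lowest adjusted p of the axoneme genes after Tekt2. It had 31.1, 21.1 and 28.5 CPM in artemisinin libraries, against 9.84, 14.0 and 15.5 CPM in model libraries. The groups were separate (log2 1.03, SE 0.24; adjusted p = 0.0552). With library totals in place of TMM scaling edgeR called it as well as Tekt2. The other listed sperm genes in the table were Dnah17, Tekt5 and Drc7; the 4 together had a median log2 fold change of 0.86. Of 8 testis germ cell markers, 6 were in the table and none exceeded 4 counts in any library.

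Dnali1 had a larger log2 fold change than the other light chains, Dnal1 and Dnal4; the median of the 3 was 0.20, and 0.30 without artemisinin replicate 2. Dnali1, an inner arm light intermediate chain, had 55.0, 17.8 and 35.4 CPM in artemisinin libraries, against 8.32, 17.3 and 16.7 CPM in model libraries (log2 1.35, SE 0.44; adjusted p = 0.126). The groups were separate by the gap of artemisinin replicate 2 to model replicate 2. Dnal1, an outer arm light chain that binds the motor domain, had 33.1, 33.0 and 37.0 CPM in artemisinin libraries, against 31.7, 38.8 and 31.6 CPM in model libraries (log2 0.01, SE 0.14; adjusted p = 0.962). Dnal4, also an axonemal light chain, had 41.2, 27.4 and 28.7 CPM in artemisinin libraries, against 27.7, 28.0 and 29.2 CPM in model libraries (log2 0.20, adjusted p = 0.531). Dnaic1 and Dnaic2, the outer arm intermediate chains under their older symbols, were looked up after the table was seen and had log2 fold changes of 0.99 and 1.23 (adjusted p = 0.211 and 0.119).

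Dnaaf genes encode cytoplasmic factors that fold and preassemble dynein arms. The 6 had a median log2 fold change of 0.81 (0.92 without artemisinin replicate 2), and none passed. Dnaaf3 had 22.4, 6.65 and 14.5 CPM in artemisinin libraries, against 7.14, 8.74 and 5.07 CPM in model libraries (log2 1.05, SE 0.44; adjusted p = 0.196), and artemisinin replicate 2 lay inside the model range. Dnaaf2 averaged 12.4 ± 3.24 CPM in artemisinin libraries and 13.2 ± 1.28 CPM in model libraries (SD, n = 3 each; log2 -0.09). Dnaaf5 averaged 22.4 ± 2.53 CPM in artemisinin libraries and 22.1 ± 3.32 CPM in model libraries (SD, n = 3 each; log2 0.02). Both differences were smaller than the spread within groups.

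Radial spokes project from the doublets to the central pair, and the 6 Rsph genes had a median log2 fold change of 0.90 (1.12 without artemisinin replicate 2). Rsph1, a protein of the spoke head, had the highest mean level per length of all 75 genes in artemisinin libraries, 53.5 ± 30.5 FPKM against 24.5 ± 9.40 FPKM in model libraries (SD, n = 3 each). Its normalised counts were 82.9, 22.3 and 64.0 CPM in artemisinin libraries, against 17.2, 37.7 and 28.8 CPM in model libraries (log2 1.01, SE 0.48; adjusted p = 0.241). Artemisinin replicates 1 and 3 lay above all model libraries, and artemisinin replicate 2 inside the model range. Rsph4a, another spoke head protein, had 26.2, 25.1 and 39.4 CPM in artemisinin libraries, against 12.1, 22.6 and 16.0 CPM in model libraries (log2 0.84, SE 0.28; adjusted p = 0.131), with no overlap.

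Rsph3b was lower in artemisinin libraries, unlike the other spoke genes. It had 5.36, 6.33 and 8.82 CPM in artemisinin libraries, against 12.1, 12.7 and 17.0 CPM in model libraries (log2 -1.02, SE 0.27; adjusted p = 0.0772), and the groups did not overlap. Rsph3a, a near-identical copy on the same chromosome, had 29.7, 29.3 and 25.2 CPM in artemisinin libraries, against 26.1, 20.2 and 36.6 CPM in model libraries (log2 0.02, adjusted p = 0.956). Reads of the copies may have been split between them, so their separate values are uncertain. Their summed level was 35.1, 35.6 and 34.0 CPM in artemisinin libraries and 38.1, 32.9 and 53.5 CPM in model libraries, which overlapped.

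Drc genes are named for the nexin-dynein regulatory complex, which may have further members under other symbols. All 3 Drc genes were higher at an unadjusted p under 0.05, beside 13.7% of all tested genes, and none passed after adjustment. The median of the 3 was 1.0 on the log2 scale (1.26 without artemisinin replicate 2). Drc3 had 50.8, 21.8 and 31.4 CPM in artemisinin libraries, against 10.7, 20.8 and 17.2 CPM in model libraries (log2 1.09, SE 0.36; adjusted p = 0.127). Drc1, at the base plate of the complex, had 24.9, 14.8 and 29.1 CPM in artemisinin libraries, against 8.96, 16.8 and 11.2 CPM in model libraries (log2 0.90, adjusted p = 0.154). Drc7 had 21.7, 10.1 and 19.5 CPM in artemisinin libraries, against 5.53, 12.7 and 7.44 CPM in model libraries (log2 1.0, adjusted p = 0.181). Drc3 was separate, and the other two overlapped because artemisinin replicate 2 lay under model replicate 2.

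Spef1 bundles microtubules of the central apparatus, and Spef2 and Spag6 are central apparatus proteins; the 4 genes had a median log2 fold change of 1.09 (1.33 without artemisinin replicate 2). Spef1l, a relative of Spef1, had 6.50, 2.43 and 4.47 CPM in artemisinin libraries, against 1.15, 1.54 and 1.04 CPM in model libraries (log2 1.84, SE 0.47; adjusted p = 0.0733), with no overlap. Spef1 had 56.9, 26.3 and 32.8 CPM in artemisinin libraries, against 19.1, 24.8 and 20.1 CPM in model libraries (log2 0.86, adjusted p = 0.136). Spef2 had 33.6, 14.2 and 23.7 CPM in artemisinin libraries, against 6.59, 14.3 and 7.66 CPM in model libraries (log2 1.33, SE 0.40; adjusted p = 0.107), and artemisinin replicate 2 lay just under model replicate 2. Spag6 was near the lower limit of measurement, at 0.628, 0.441 and 0.630 CPM in artemisinin libraries and 0.273, 0.185 and 0.662 CPM in model libraries. Together with its copy Spag6l the level was 23.2, 14.6 and 27.0 CPM in artemisinin libraries and 7.35, 17.2 and 10.9 CPM in model libraries.

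The Cfap genes, a naming family for cilia- and flagella-associated proteins rather than one structure, had the widest range. Of 33, none passed, and the median log2 fold change was 0.82 (1.04 without artemisinin replicate 2). At an unadjusted p under 0.05, 13 were higher and 2 lower, beside 13.7% and 11% of all tested genes. Cfap100, known in Chlamydomonas to tether inner arms, had the largest log2 fold change of the 73 tested axoneme genes, at 32.9, 8.76 and 19.5 CPM in artemisinin libraries, against 3.70, 8.09 and 4.70 CPM in model libraries (log2 1.89, SE 0.51; adjusted p = 0.0838). Cfap65 had 91.3, 19.2 and 43.7 CPM in artemisinin libraries, against 12.1, 22.3 and 15 CPM in model libraries (log2 1.64, SE 0.53; adjusted p = 0.124). Cfap126, a protein of the doublet microtubules also called Flattop, had 76.3, 19.8 and 37.0 CPM in artemisinin libraries, against 11.6, 20.6 and 16.2 CPM in model libraries (log2 1.46, SE 0.47; adjusted p = 0.124). Artemisinin replicate 1 was highest for each, and only Cfap100 was separate.

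Cfap20 and Cfap97 had log2 fold changes below 0. Cfap20, a protein at the inner junction of the doublet, had 39.5, 34.0 and 39.5 CPM in artemisinin libraries, against 50.1, 50.4 and 46.8 CPM in model libraries (log2 -0.38, SE 0.13; adjusted p = 0.13). Cfap97 had 24.9, 35.5 and 31.9 CPM in artemisinin libraries, against 44.1, 41.8 and 50.1 CPM in model libraries (log2 -0.56, SE 0.17; adjusted p = 0.107). The groups did not overlap for either gene. Cfap36 averaged 51.9 ± 4.76 CPM in artemisinin libraries and 51.5 ± 2.35 CPM in model libraries, a difference smaller than the spread (SD, n = 3 each; log2 0.01). Cfap298, a dynein assembly factor, averaged 52.0 ± 17.3 CPM in artemisinin libraries and 36.2 ± 3.34 CPM in model libraries (SD, n = 3 each; log2 0.52, adjusted p = 0.233).

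Of the 75 genes, 9 were listed as known from cells without motile cilia: Cfap20, Cfap36, Cfap97, Cfap298, Cfap410, Dnaaf2, Dnaaf5, Dnal1 and Dnal4. The list was chosen with earlier results of these data known, so its values may reflect the choice. Genes left off it may also be known from such cells. Their median log2 fold change was 0.01 (0.05 without artemisinin replicate 2), with 0 higher and 2 lower at an unadjusted p under 0.05. The other 64 tested axoneme genes had a median of 0.96 (1.17 without artemisinin replicate 2), with 33 higher and 1 lower. Over all tested genes 13.7% were higher and 11% lower, so the counts of the 9 are near that background, and the difference between the 9 and the 64 was not tested. Among those 64, Rsph3b alone had a log2 fold change below 0. Of the 75 genes, 59 (78.7%) carried a cilium, axoneme, flagellum or dynein term in the authors' deposited annotation, against 4.59% of all genes, and 23 (30.7%) carried a sperm term, against 3.69% of all genes.

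**Figure D3:**
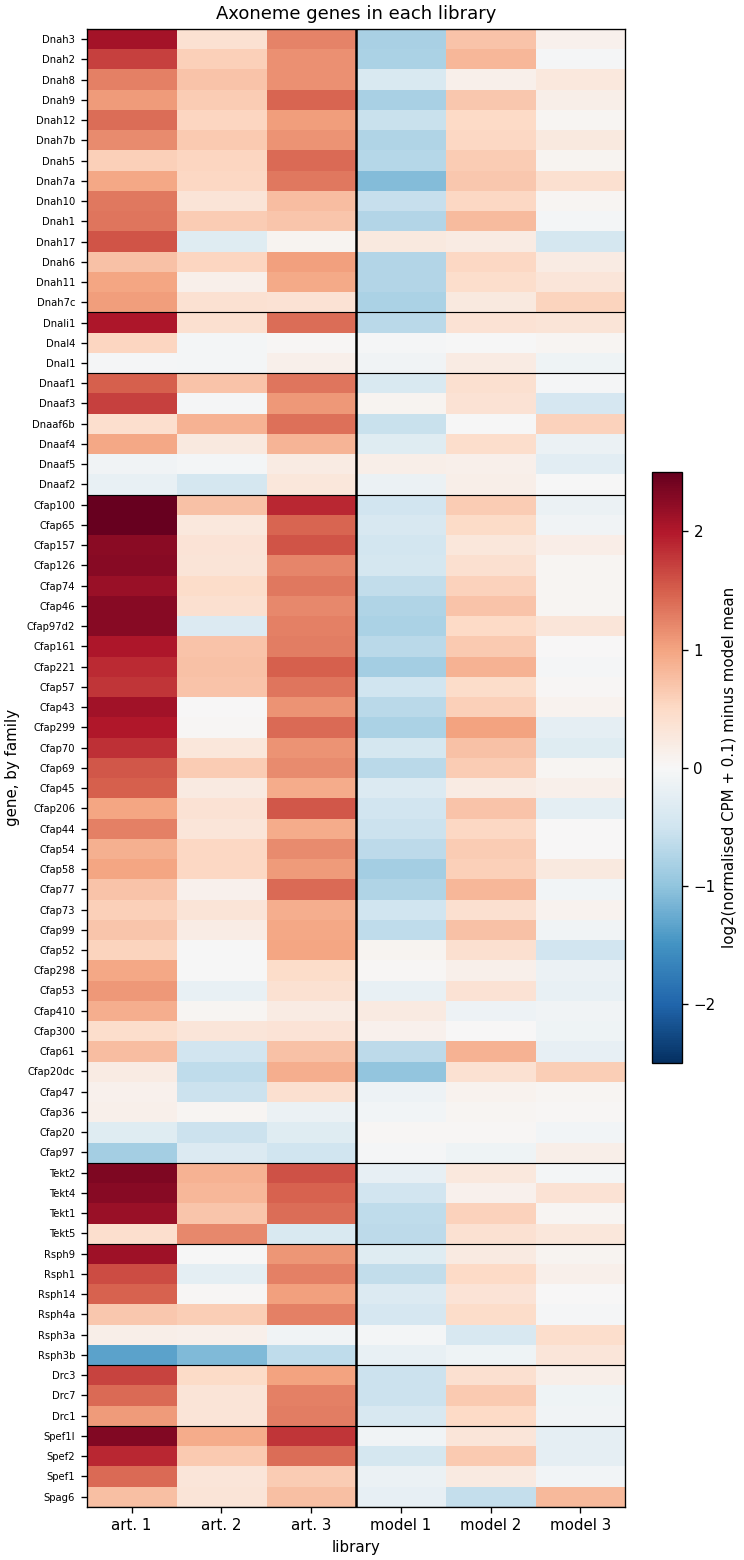
Log2 of normalised CPM plus 0.1 minus the mean of the model libraries (colour; values beyond the ends of the scale take the end colour) for the 73 tested axoneme genes (rows, grouped by family) in the 3 artemisinin and 3 model libraries (columns). Most rows are darkest red in artemisinin replicate 1 and bluest in model replicate 1, where 54 of the 73 were lowest.

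The libraries of each group did not stand together. Relative to the model mean on a log2 scale, the median of the 64 genes was 1.41, 0.36 and 1.14 in artemisinin replicates 1, 2 and 3, and -0.54, 0.49 and 0.05 in model replicates 1, 2 and 3. The medians of all tested genes lay between -0.00219 and 0.0182 in the 6 libraries. Artemisinin replicate 1 was the highest library for 43 of the 64 and artemisinin replicate 3 for 16. Artemisinin replicate 2 exceeded model replicate 2 for 25 of the 64, with a median log2 ratio of -0.12. It exceeded model replicate 1 for 58 and model replicate 3 for 51. Within the model group, replicate 2 exceeded replicate 1 for 60 of the 64, with a median log2 ratio of 1.06. These were the model libraries with the highest and the lowest median. The distance between these model mice was larger than the median fold change of 0.96 between the groups. By the medians above, the other pairs of model libraries lay closer together. The 1.06 sets 1 mouse against 1 mouse, while the 0.96 sets 3 mice against 3.

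The 16 genes that were highest in artemisinin replicate 3 were Dnah5, Dnah6, Dnah7a, Dnah9, Drc1, Rsph4a, Dnaaf6b, Cfap20dc, Cfap47, Cfap52, Cfap54, Cfap58, Cfap73, Cfap77, Cfap99 and Cfap206. Their median length was 3770 bases, against 3858 bases for the 43 that were highest in artemisinin replicate 1. Transcript length differed among axoneme genes, with a median of 13950 bases for the dynein heavy chains and 1754 bases for the tested tektins. The 32 longer of the 64 genes had library medians of 1.29, 0.49 and 1.13 in artemisinin libraries and -0.65, 0.58 and 0.05 in model libraries. The 32 shorter had 1.48, 0.32 and 1.25 in artemisinin libraries and -0.44, 0.37 and 0.05 in model libraries. All tested genes up to the same split, 3497 bases, had a median of 0.19 in artemisinin replicate 1, and longer ones a median of -0.15 there. With a trend on length removed in the fit, an alternative chosen after the data were seen, edgeR called Dnah8 higher and Tekt2 not (adjusted p = 0.0522), and the median over axoneme genes was 0.94.

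**Figure D4:**
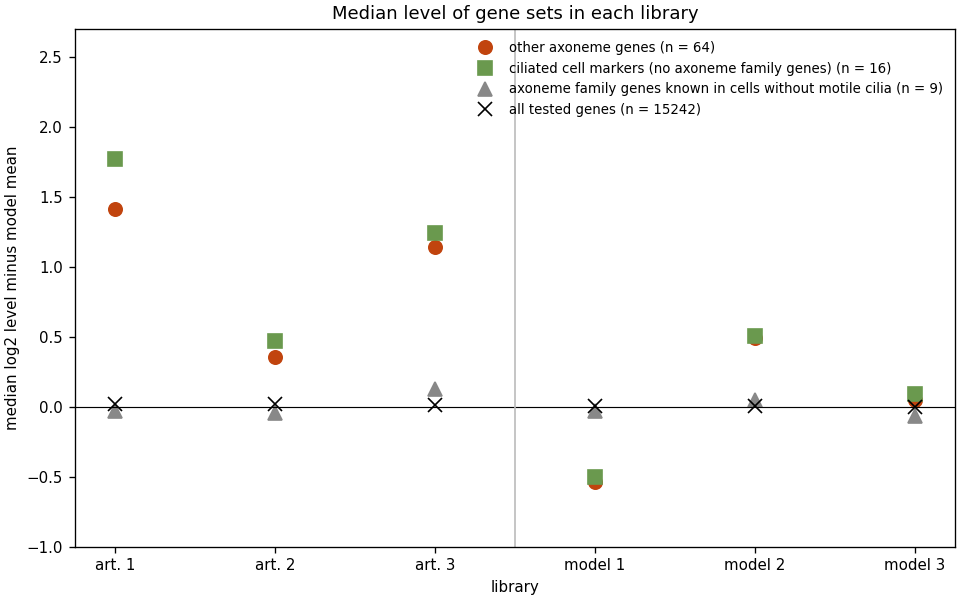
Median log2 level minus the model mean (vertical axis) in each library (horizontal axis, artemisinin left of model) for 4 gene sets. The 64 axoneme genes and the 16 ciliated cell markers have the same order of libraries, with 1.41 and 1.77 in artemisinin replicate 1. In model replicate 1 they were at -0.54 and -0.50. The markers include some axoneme genes under other symbols. The other sets lie near 0.

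The median of ciliated cell markers outside the families was high and low in the same libraries as that of the axoneme genes. Among these markers, Ccdc39, Ccdc40, Hydin, Spag17 and Dynlrb2 also stand on the ruler, central pair and dynein lists below. The markers are thus partly axoneme genes under other symbols and not an independent reading of ciliated cells. All 16 markers were above 0, with a median log2 fold change of 1.21. At an unadjusted p under 0.05, 14 were higher, beside 13.7% of all tested genes. Mlf1 passed in edgeR (log2 1.69, SE 0.27, adjusted p = 0.0239). It had 30.4, 38.5 and 21.8 CPM in artemisinin libraries, against 7.56, 11.5 and 9.08 CPM in model libraries. Its highest value was in artemisinin replicate 2, unlike the marker median. Library medians of the 16 markers relative to the model mean were 1.77, 0.47 and 1.24 in artemisinin libraries. They were -0.50, 0.51 and 0.09 in model libraries, in the same order of libraries as the 64 axoneme genes. Set against that marker median in each library, Drc3 varied least, over a range of 0.29 log2 units, followed by Cfap57 with 0.29 and Cfap69 with 0.37. Rsph3b with 3.43, Cfap97 with 3.09 and Cfap20 with 2.61 varied most. Tekt5 spanned 2.36, and Dnah5 lay 1.35 apart between its highest and lowest library, with -1.18 in artemisinin replicate 1.

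Other genes of the ciliary pathway were read from lists, and no gene on the next 7 lists passed. Foxj1, Ccdc39, Ccdc40, Hydin, Spag17 and Dynlrb2 on these lists were also among the 16 markers above. The lists are therefore not separate from the markers. In the transcription program 9 of 10 were above 0, with a median log2 fold change of 0.60 and 4 higher at an unadjusted p under 0.05. Over all tested genes, 13.7% were higher at that threshold. Foxj1, the master regulator of motile ciliogenesis, had 121.8, 45.6 and 130.0 CPM in artemisinin libraries, against 29.6, 61.6 and 42.7 CPM in model libraries (log2 1.15, SE 0.42; adjusted p = 0.157), and artemisinin replicate 2 lay inside the model range. Trp73 and Myb, regulators of multiciliated differentiation, were separate, with log2 fold changes of 1.64 (adjusted p = 0.0908) and 1.28 (adjusted p = 0.111). The 8 docking and ruler genes had a median of 1.09 with 4 higher at an unadjusted p under 0.05. The 8 tested dynein and spoke subunits under other names had a median of 1.17 with 6 higher. The 5 genes on the central pair list had a median of 0.83 with 3 higher. Cep131, which is on that list but is not a central pair protein, had the smallest log2 fold change of the 5 (0.21). The 6 further assembly factors had a median of 0.68 with 4 higher.

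Basal body amplification and intraflagellar transport genes gave smaller medians. The 7 amplification genes had a median log2 fold change of 0.28, with 0 at an unadjusted p under 0.05 in either direction. Plk4, Cep152, Stil and Sass6, which also serve centriole duplication in dividing cells, were at -0.23, 0.16, -0.48 and 0.28. Ccdc78, Cdc20b and Deup1 were at 1.22, 0.79 and 0.39. The list median thus mixes both kinds of gene, and the difference between them was not tested. The 19 intraflagellar transport genes, which serve primary as well as motile cilia, had a median of 0.12. At an unadjusted p under 0.05, 1 was higher and 3 lower, beside 13.7% and 11% of all tested genes. The lower count is near that background. Their summed level was 595.5, 567.4 and 600.5 CPM in artemisinin libraries and 614.9, 610.4 and 599.5 CPM in model libraries.

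Markers of other cell types differed between the libraries beside the axoneme genes. Summed over 10 genes, club and secretory markers reached 78000, 23710 and 32100 CPM in artemisinin libraries and 9297, 23490 and 15490 CPM in model libraries; Scgb1a1, the main club cell secretory protein, made up most of it. Artemisinin replicate 1 was highest and model replicate 1 lowest, as for the axoneme genes. Alveolar type 2 markers summed over 6 genes to 13920, 17840 and 5767 CPM in artemisinin libraries and 63530, 42400 and 50890 CPM in model libraries. All 6 had log2 fold changes below 0 with no overlap of the groups, and 4 passed as lower, beside 2.3% of all tested genes. Neutrophil markers summed over 5 genes to 645.9, 815.5 and 4027 CPM in artemisinin libraries and 69.95, 84.8 and 93.8 CPM in model libraries. All 5 passed as higher, beside 2.17% of all tested genes. Adipocyte markers summed over 3 genes to 65.9, 14.7 and 24.3 CPM in artemisinin libraries and 8.68, 24.2 and 21.8 CPM in model libraries, again with artemisinin replicate 1 highest and model replicate 1 lowest. Alveolar type 1 markers overlapped between the groups. The part of these differences in the axoneme result was not tested.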

How the data were processed

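Per the labels, RNA was isolated with a mirVana kit and stranded mRNA libraries were prepared with a TruSeq kit. The authors deposited whole-number read counts per gene, without normalization, and FPKM, which scale those counts by gene length and library total. The genome build is GRCm38 (mm10), per the submitters' processing notes. The sources used here do not give the aligner, counter or strand setting, so overlapping or antisense genes may not have been told apart. Each library was taken as 1 mouse, since the design text speaks of mice; p-values measure the spread between these libraries.

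Counts were tested over the whole table with edgeR 4.0.16 (filterByExpr, TMM, robust quasi-likelihood F test, R 4.3.3), which kept 15242 of 18238 genes; p-values were Benjamini-Hochberg adjusted at 0.05. The standard error was the log2 fold change divided by the square root of F. Alternatives were DESeq2 1.42.0, limma 3.58.1 (voom, and log2 of FPKM plus 0.1 or 1), other scaling, no filter, a replicate block, a length offset and leaving out each library. The edgeR script was tested on simulated data. Gene length was implied by counts over FPKM. Positions and promoters are from RefSeq GRCm38.p6.

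The 75 genes and all lists were chosen with earlier results of these data known. Genes named with values were every gene past the threshold, the 3 of highest mean FPKM in each family (5 for Dnah and Cfap), and the 5 largest and 5 smallest log2 fold changes; others named are marked where they appear or come from the lists.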

Additional observations from a re-analysis of the deposited data

How the results depend on the processing

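The median log2 fold change of the axoneme genes ranged between 0.67 and 1.16 over all alternatives. The count called higher was 1 with DESeq2 size factors, without the low-count filter, with voom and with the length-trend offset. It was 18 with DESeq2's own test, 2 with library totals alone, and 0, 0 and 0 with limma on FPKM (pseudocount 0.1, pseudocount 1, no filter). It was 0 with a replicate block, where 65 genes of the whole table were called higher and 63 lower, against 331 and 351 without it. Leaving out 1 library each gave 0 to 16, with 16 without artemisinin replicate 2, while calls higher over the whole table ranged between 6 and 670 in those fits. The count called lower was 2 with DESeq2 and 0 elsewhere. The labels do not say whether same-numbered libraries form pairs. Same-numbered deviations correlated at -0.00181, -0.0934 and 0.0298, and the block left a median of 0.89. With 3 libraries per group, these values cannot decide whether the libraries were paired. Library totals moved the median of all genes to 0.15, against 0.04 with TMM. Tekt2 was called in 6 of 16 alternatives and Dnah8 in 4. Among the genes named by rule, Tekt2 alone had a call in the main fit, and all 10 values that lost a call were of Tekt2. Of the other values, 463 kept their direction and their call or lack of a call, and most of these had no call. A further 22 gained a call, and 17 changed sign, all of genes with no call. Leaving out 1 library each gave -0.0475 to 0.0431 for Cfap36, -0.355 to 0.0571 for Dnaaf2, -0.119 to 0.0826 for Dnaaf5, -0.0818 to 0.0899 for Dnal1, -0.0112 to 0.303 for Dnal4 and -0.189 to 0.276 for Rsph3a. With the length offset, Dnaaf5 was at -0.0176 and Rsph3a at -0.0918, and with library totals Dnaaf2 was at 0.0191. The cause was not tested. Depth limits Dnah14, Tekt3 and Spag6, which had few counts.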
